A study of Mus musculus with 12 samples.

Results

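This report describes 38 genes of the presynaptic release machinery, of 24100 genes in the count table, in primary neurons cultured from the mouse entorhinal cortex (EC). The genes were chosen by name and all 38 were found in the table. They comprise 9 genes of the SNARE complex, its clamp complexin and its disassembly, 9 genes of vesicle membrane proteins and glutamate transporters, 7 synapsin, Rab3 and rabphilin genes, and 13 genes of the active zone scaffold and of vesicle priming. DEK is a nuclear, chromatin-associated phosphoprotein, and the study asked how gene expression in EC neurons changes when *Dek* is silenced or overexpressed. Cultures were made from C57BL/6J embryos at embryonic day 17 and were transduced after 7 days in vitro with adeno-associated virus of serotype 1 (AAV1) at 1e10 viral genomes per ml, and RNA was collected 4 days later.

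There were 4 groups of 3 libraries. The *Dek* silencing group received AAV1-mCherry-U6-mDEK-shRNA, a short hairpin RNA against *Dek*, and its control, the scrambled group, received AAV1-mCherry-U6-scrmb-shRNA. The *Dek* overexpression group received AAV1-hSyn1-mDEK-IRES-mCherry, and its control, the empty vector group, received AAV1-hSyn1-mCherry-WPRE. All 12 libraries therefore came from virus-treated, mCherry-expressing cultures. U6 is active in most cell types, whereas hSyn1 is a neuronal promoter, so the pairs of groups differ in promoter as well as in cargo. The replicates are wells, and the labels do not say whether they came from separate dissections, so the p-values measure the spread between wells. Libraries held between 15679567 and 18933382 counts.

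At a presynaptic terminal, neurotransmitter is loaded into vesicles by transporters, and vesicles are docked and primed at the active zone by a scaffold of RIM, Munc13, ELKS, liprin, Bassoon and Piccolo proteins. Fusion is driven by pairing of the vesicle SNARE synaptobrevin with the plasma membrane SNAREs syntaxin and SNAP-25, is clamped and promoted by complexins, and is followed by disassembly of the SNARE complex by NSF with its adaptors, the SNAPs. Synapsins tether the reserve pool of vesicles, and Rab3 GTPases and their effectors rabphilin and RIM link vesicles to the release site.

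*Dek* itself was measured first, as a check of the labels. Its level was 7.74 ± 1.0 CPM (counts relative to the TMM-scaled total of the library, SD, n = 3) in the silencing group and 36.0 ± 0.713 in the scrambled group, a log2 fold change (log2FC) of −2.23 ± 0.1 (SE), and it was 143 ± 13.5 CPM in the overexpression group against 38.6 ± 2.55 in the empty vector group (log2FC 1.89 ± 0.08). Both changes passed the test (adjusted p = 1.3e-08 and 1.4e-08, edgeR quasi-likelihood test with Benjamini-Hochberg adjustment over all genes). All 12 pan-neuronal markers were detected in every group. Of these, 9 were lower and 1 was higher in silenced than in scrambled libraries, and their summed level ran from 6717 to 6882 CPM in silenced and from 8233 to 8732 CPM in scrambled libraries. The 7 excitatory markers summed to 401 to 443 CPM after silencing, 493 to 563 with the scrambled hairpin and 638 to 722 with the empty vector. The 9 GABAergic markers summed to 2344 to 2754, 2463 to 2625 and 2166 to 2218 CPM in the same order. These sums hide changes in both directions. Between silenced and scrambled libraries 2 of the 9 were lower and 4 higher, with log2FC from −1.63 to 1.71. Oligodendrocyte lineage markers were higher after silencing for 7 of the 10 tested (175 to 282 against 93.3 to 152 CPM in sum), astrocyte markers overlapped (337 to 689 against 350.3 to 631; 0 of 9 called), and the dividing and progenitor markers summed to 73.9 to 123 against 95 to 143 CPM, with 1 of 7 higher. Microglial and endothelial or fibroblast markers were low, with sums of at most 14.4 and 16.7 CPM in any library. *P2ry12*, *Cldn5* and *Cdh5* were under 1 CPM in every group. The microglial marker *Aif1* had means of 8.79 CPM with the empty vector, 3.66 with the scrambled hairpin and 1.22 after silencing. It was called lower in silencing against scrambled (log2FC −1.59 ± 0.21, adjusted p = 5.5e-05), the 1 call among the 5 microglial markers tested. *Cx3cr1* (0.58), *Tyrobp* (0.27), *Csf1r* (0.08) and *C1qa* (−0.15), all near 1 CPM or under, were not called. Against the empty vector *Aif1* was lower (−2.84 ± 0.17, adjusted p = 2e-08) and *Csf1r* higher (1.14 ± 0.35, adjusted p = 0.012), so these markers did not move together. In bulk libraries such as these, fewer cells of a type and less RNA per cell cannot be told apart, and the part of any of these shifts in the results that follow was not tested.

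All 38 genes passed the filter on low counts and were tested in every comparison. After *Dek* silencing, 18 of the 38 were lower and 6 were higher than with the scrambled hairpin at an adjusted p below 0.05, where 28.5% of all 14232 genes tested were lower and 26.2% were higher. The median log2FC of the 38 genes was −0.16, beside −0.0011 for all genes. In this fit the calls were unevenly spread over the 4 groups of genes. That spread changed with allowance for GC content and length, as given below. In the active zone group 8 of 13 were lower and 1 was higher (median −0.5), in the SNARE group 4 of 9 were lower and 1 higher (median −0.15), among the vesicle membrane genes 3 of 9 were lower and 3 higher (median 0.06), and among the synapsin, Rab3 and rabphilin genes 3 of 7 were lower and 1 higher (median −0.13). Scaling by library totals alone, which moved the median of all genes by 0.1, gave 14 lower and 10 higher. The shares over all genes were not counted under that scaling, and those given above do not apply to it.

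**Figure D1:**
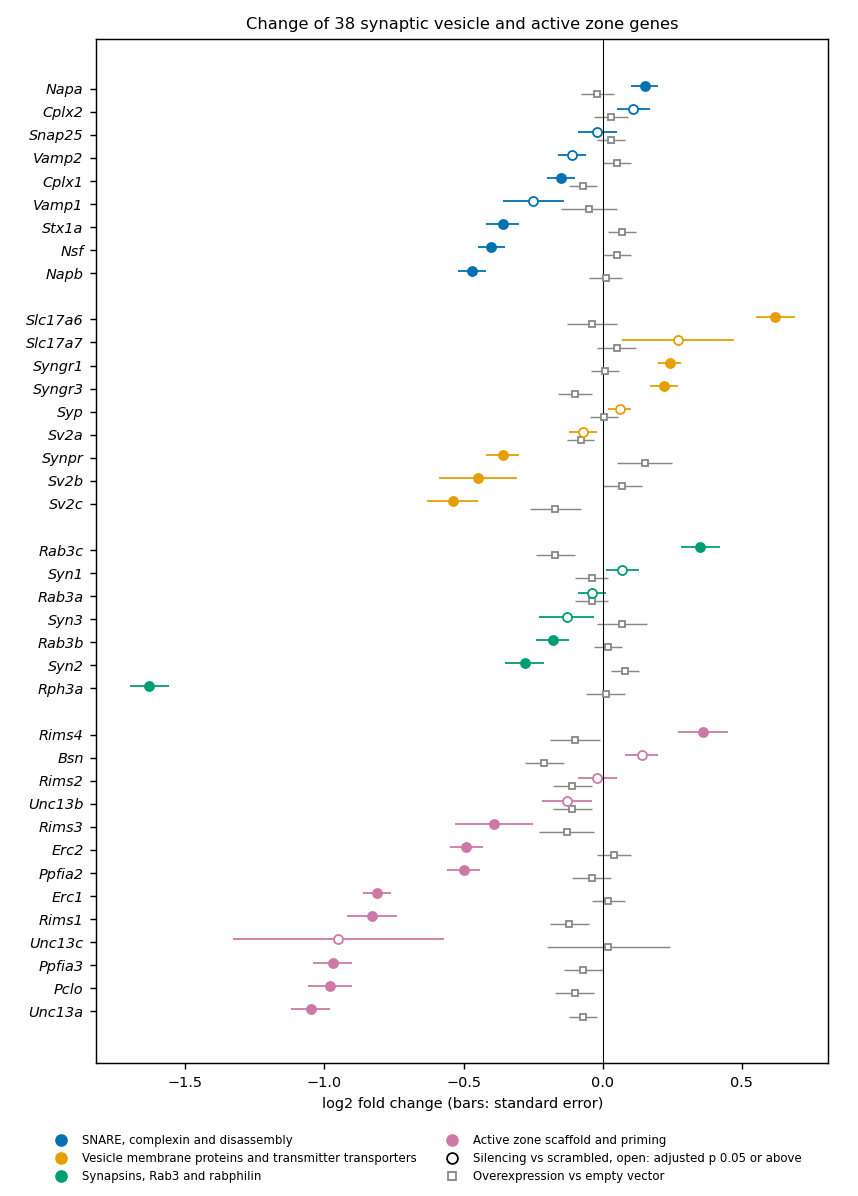
Log2 fold change (x axis; bars, SE) of each of the 38 genes in Dek silencing against scrambled (circles, colored by group of genes, filled where the adjusted p was below 0.05) and in Dek overexpression against empty vector (grey squares). The silencing circles spread from −1.63 (Rph3a) to 0.62 (Slc17a6) and the 8 filled active zone circles on the left lie between −1.05 and −0.39, whereas the overexpression squares stay between −0.21 and 0.15.

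The active zone genes held most of the larger falls. *Unc13a* (chr8:71624417-71671757, GRCm38, minus strand) encodes Munc13-1, the priming factor that opens syntaxin for SNARE assembly. It measured 154, 135 and 163 CPM in the 3 silenced libraries and 309.6, 308 and 309 in the scrambled libraries. Every silenced library lay below every scrambled library, and the mean fell from 309 to 151 CPM (log2FC −1.05 ± 0.07, adjusted p = 1.3e-07). *Pclo* (chr5:14514918-14863459, plus strand) encodes Piccolo, a giant scaffold of the active zone. It was at 52.4, 44.4 and 43.5 CPM after silencing and 97.3, 87 and 90.3 CPM with the scrambled hairpin. The groups did not overlap, with means of 46.8 ± 4.91 and 91.5 ± 5.29 CPM (log2FC −0.98 ± 0.08, adjusted p = 6.8e-07). *Bsn*, encoding the related giant scaffold Bassoon, did not follow: it was at 137, 148 and 152 CPM in silenced and 125, 131 and 136 CPM in scrambled libraries, with no overlap but without passing the test (log2FC 0.14 ± 0.06, adjusted p = 0.061).

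The RIM family split by member. *Rims1* encodes RIM1, which binds Rab3 on vesicles and recruits calcium channels to the release site. Its level was 50.2, 40.5 and 41 CPM after silencing and 85.3, 73.5 and 72.6 CPM with the scrambled hairpin. The silenced libraries were all below the scrambled ones (log2FC −0.83 ± 0.09, adjusted p = 1.6e-05). *Rims2*, the other long RIM, measured 48.5, 44.9 and 43.9 CPM after silencing against 48, 42.8 and 46.9 CPM, which overlapped (log2FC −0.02 ± 0.07, adjusted p = 0.83). The short isoform genes *Rims3* and *Rims4*, which encode RIM3 and RIM4, moved apart. *Rims3* was lower (10.2, 9.2 and 9.73 against 15, 12.2 and 10.5 CPM, log2FC −0.39 ± 0.14, adjusted p = 0.03) and *Rims4* was higher (27, 31.6 and 28.9 against 24.2, 21.3 and 21.8 CPM, log2FC 0.36 ± 0.09, adjusted p = 0.0049), and in neither did the libraries of the groups overlap. The *Rims3* call was among the least secure, being lost without any of 4 single libraries and, at −0.31, with the offsets for GC content and length (adjusted p = 0.094). It was also lost with library totals and in the DESeq2 Wald test.

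The ELKS and liprin scaffolds fell as pairs. *Erc1*, an ELKS scaffold that binds RIM, was at 132, 137 and 138 CPM after silencing and 229, 234 and 242 CPM with the scrambled hairpin. The values within each group were tight, at 136 ± 3.28 and 235 ± 6.53 CPM, and did not overlap (log2FC −0.81 ± 0.05, adjusted p = 1.5e-07). *Erc2*, its brain-specific paralog, measured 100, 91.8 and 90 against 128, 131 and 133 CPM, a smaller fall without overlap (log2FC −0.49 ± 0.06, adjusted p = 1.5e-05). *Ppfia3*, one of the liprin-α genes, whose products organize the scaffold at sites of release, measured 68.4, 76.8 and 81.7 CPM after silencing and 144, 152 and 144 CPM with the scrambled hairpin (log2FC −0.97 ± 0.07, adjusted p = 3.5e-07). For *Ppfia2*, another liprin-α gene, the values were 142, 122 and 135 CPM after silencing against 192, 184 and 182 CPM (log2FC −0.5 ± 0.06, adjusted p = 2.8e-05). In both, every silenced library lay below every scrambled library. Of the other Munc13 genes, *Unc13b* (Munc13-2) did not pass the test at 52.4, 46.5 and 53.8 against 63.2, 50.3 and 51.7 CPM (log2FC −0.13 ± 0.09, adjusted p = 0.27), and *Unc13c* (Munc13-3, known mainly from cerebellum) was close to the limit of detection at 0.618, 0.49 and 1.22 against 1.13, 1.37 and 2.01 CPM, between 9 and 52 counts in any library, with a log2FC of −0.95 ± 0.38 that missed the threshold (adjusted p = 0.055).

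**Figure D2:**
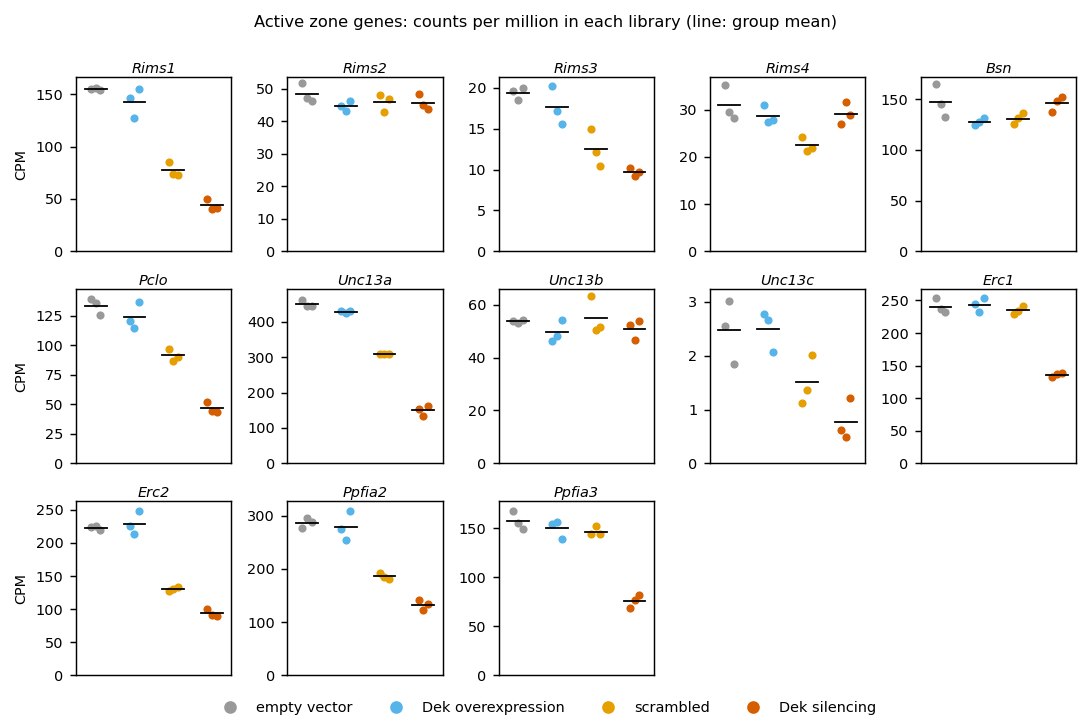
CPM (y axis, from 0) of the 13 active zone genes in each of the 12 libraries, by group; points are libraries and lines are group means. Unc13a, Rims1, Pclo, Erc2 and Ppfia2 step down from empty vector to scrambled and again to Dek silencing, Erc1 and Ppfia3 drop in the silenced libraries, and Rims2 and Unc13b stay level.

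Within the synapsin, Rab3 and rabphilin group, *Rph3a* changed most of all 38 genes. It lies at chr5:120940499-121010092 (GRCm38, minus strand) and encodes rabphilin-3A, a Rab3 and Rab27 effector that also binds SNAP-25. Its level was 109, 108 and 122 CPM after silencing and 324, 357 and 359.6 CPM with the scrambled hairpin. The silenced libraries all lay far below the scrambled ones, at 113 ± 8.04 against 347 ± 20.1 CPM, a ratio of 0.323 (log2FC −1.63 ± 0.07, adjusted p = 6.7e-09). The Rab3 genes, whose GTPases sit on vesicles and bind rabphilin and RIM, did not move together. *Rab3c* was higher (905, 809.9 and 769 against 699, 628 and 599 CPM, log2FC 0.35 ± 0.07, adjusted p = 0.0012), *Rab3b* was slightly lower (92.3, 84.4 and 87.4 against 100, 100 and 95.3 CPM, log2FC −0.18 ± 0.06, adjusted p = 0.018), and *Rab3a*, the most abundant of the 3 per length, measured 616, 637 and 638 against 661, 644 and 626 CPM with a log2FC of −0.04 ± 0.05 (adjusted p = 0.44). Of the synapsins, *Syn2* was lower at 379, 414 and 352 against 425, 478 and 469.8 CPM (log2FC −0.28 ± 0.07, adjusted p = 0.0044), without overlap. *Syn1* and *Syn3* did not pass the test (0.07 ± 0.06, adjusted p = 0.38, and −0.13 ± 0.1, adjusted p = 0.31), and their libraries overlapped.

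In the fit without offsets most core SNARE genes were not called, while the disassembly genes split. *Stx1a*, encoding the plasma membrane SNARE syntaxin-1A, was the one core SNARE gene called in that fit. It measured 204, 191 and 214 CPM after silencing and 240.1, 267 and 271 CPM with the scrambled hairpin, without overlap (log2FC −0.36 ± 0.06, adjusted p = 0.00043). *Snap25* (−0.02 ± 0.07, adjusted p = 0.8), *Vamp2*, the main synaptobrevin of the forebrain (−0.11 ± 0.05, adjusted p = 0.069), and *Vamp1* (−0.25 ± 0.11, adjusted p = 0.078) did not pass the test, nor did *Cplx2* (0.11 ± 0.06, adjusted p = 0.15). Among the more abundant of these, *Snap25* ranged over 934, 835 and 743 CPM in silenced and 884, 829.7 and 813 CPM in scrambled libraries, and *Vamp2* over 1436, 1338 and 1333 CPM against 1539, 1438 and 1412 CPM. With the offsets for GC content and length *Stx1a* (−0.48, adjusted p = 3.1e-05), *Vamp1* (−0.28, adjusted p = 0.044) and *Vamp2* (−0.24, adjusted p = 0.0028) were called lower. *Snap25* was not (−0.03, adjusted p = 0.72). *Cplx1*, the other complexin, was called lower by a small margin (−0.15 ± 0.05, adjusted p = 0.032), although its highest silenced library overlapped the scrambled libraries (878, 816 and 824 against 978, 909 and 870.3 CPM). That call was lost in 10 of 16 alternatives, among them the DESeq2 Wald test, DESeq2 size factors, library totals and the joint fit of 12 libraries. *Nsf*, the ATPase that pulls used SNARE complexes apart, was at 476, 449 and 459.6 CPM after silencing and 592, 611 and 606 CPM with the scrambled hairpin (log2FC −0.4 ± 0.05, adjusted p = 1.4e-05). *Napb*, encoding the brain-enriched adaptor β-SNAP, fell with it, from 437, 427 and 424 to 338, 303 and 298 CPM (log2FC −0.47 ± 0.05, adjusted p = 1.6e-05). *Napa*, encoding the widely expressed α-SNAP, was higher instead, at 289, 284 and 293 against 268, 247 and 256 CPM (log2FC 0.15 ± 0.05, adjusted p = 0.022), and this call was lost with allowance for GC content and length (0.06, adjusted p = 0.34).

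Vesicle membrane genes moved in both directions. *Slc17a6* and *Slc17a7* encode the vesicular glutamate transporters VGLUT2 and VGLUT1, which fill vesicles of excitatory neurons. *Slc17a6* measured 70.1, 65.2 and 61.2 CPM in silenced and 41.8, 42.2 and 42.5 CPM in scrambled libraries. All 3 silenced libraries were above all 3 scrambled libraries, a ratio of 1.54 (log2FC 0.62 ± 0.07, adjusted p = 9e-06). *Slc17a7* was more variable, at 100.2, 132 and 141 against 79.2, 111 and 117 CPM. The groups overlapped and the test was not passed (log2FC 0.27 ± 0.2, adjusted p = 0.32). Each silenced library lay above the scrambled library of its number, however, and a fit with a block for replicate number called the gene higher. Of the synaptogyrins, 4-pass membrane proteins of the vesicle, *Syngr1* (686, 690.5 and 686 against 563, 591 and 577 CPM, log2FC 0.24 ± 0.04, adjusted p = 0.00071) and *Syngr3* (487, 499.6 and 499 against 429, 430 and 407 CPM, log2FC 0.22 ± 0.05, adjusted p = 0.0021) were both higher without overlap. The related *Syp*, which encodes synaptophysin and is a common marker of terminals, did not pass the test at 1691, 1648 and 1686 against 1632, 1563 and 1571 CPM (0.06 ± 0.04, adjusted p = 0.22), although its groups did not overlap. Its relative *Synpr*, encoding synaptoporin, was lower at 94.7, 102 and 91.8 against 119, 127 and 121 CPM (log2FC −0.36 ± 0.06, adjusted p = 0.00024). Among the SV2 glycoproteins, *Sv2b* (44.1, 55.9 and 58.5 against 58.7, 78.1 and 77.9 CPM, log2FC −0.45 ± 0.14, adjusted p = 0.031) and *Sv2c* (28.3, 25.7 and 27.1 against 43.5, 35.8 and 37.6 CPM, log2FC −0.54 ± 0.09, adjusted p = 0.00024) were lower, and *Sv2a*, the most widely expressed of the 3, was not called (−0.07 ± 0.05, adjusted p = 0.2).

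**Figure D3:**
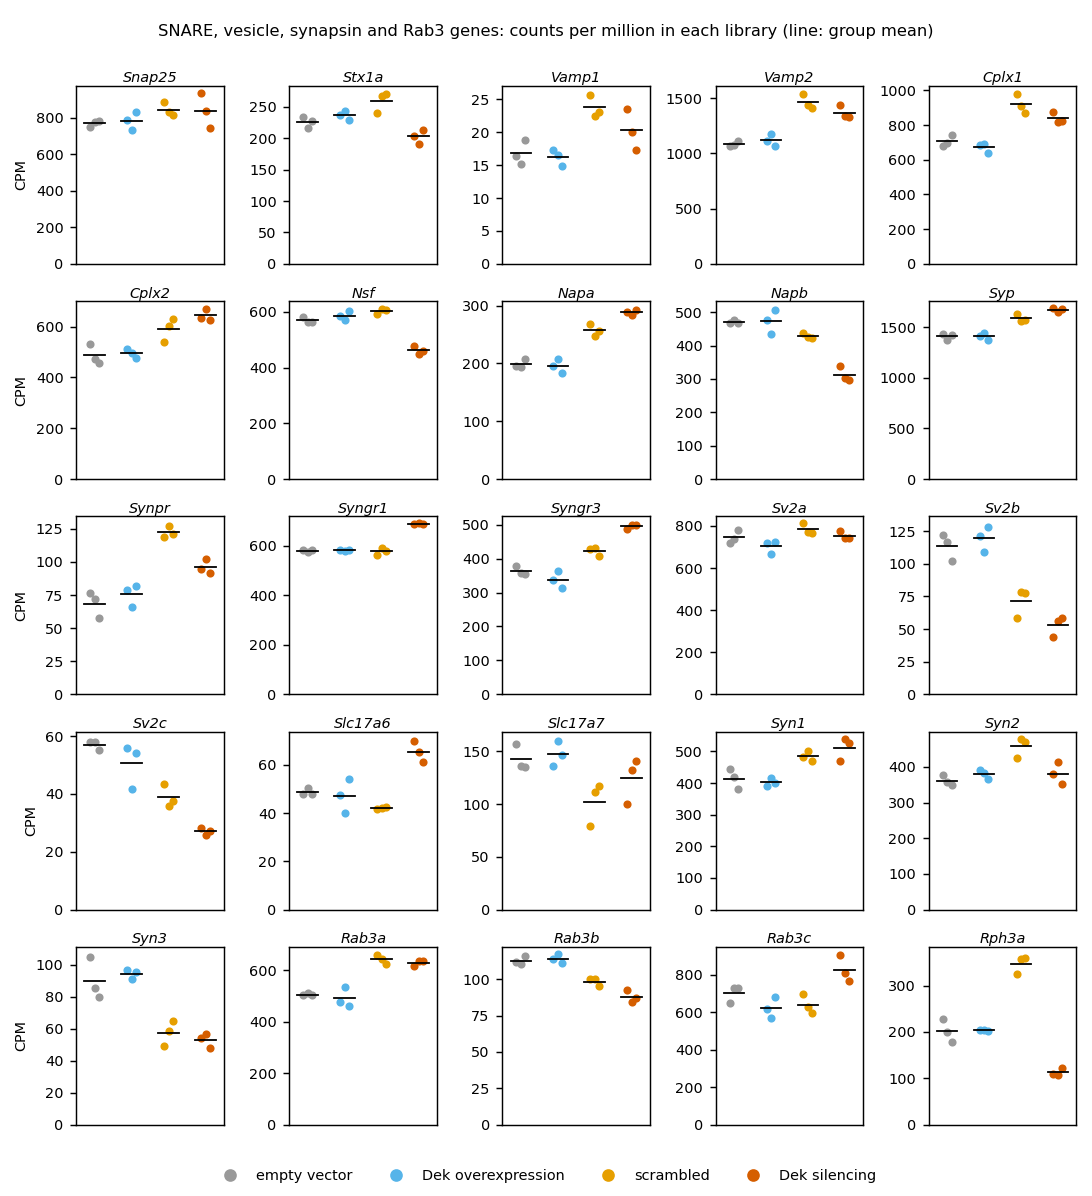
CPM (y axis, from 0) of the 25 SNARE, vesicle, synapsin, Rab3 and rabphilin genes in each of the 12 libraries; points are libraries and lines are group means. Rph3a is highest in the scrambled and lowest in the silenced libraries, Slc17a6 and Syngr1 are highest in the silenced libraries, and the empty vector and overexpression libraries overlap in every panel.

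Levels can be compared between genes only per length, so CPM were divided by the median length in kilobases of each gene's annotated transcripts. With the empty vector, the highest levels were those of *Vamp2* (654 CPM per kb), *Syp* (545), *Snap25* (492), *Rab3a* (359) and *Cplx1* (322), and the lowest were those of *Unc13c* (0.321), *Rims3* (3.01), *Vamp1* (6.08), *Rims4* (6.24) and *Pclo* (7.24). Within families, *Unc13a* stood at 56.5 CPM per kb beside 8.31 for *Unc13b*, *Rims1* at 25.4 beside 10.2 for *Rims2*, and *Slc17a7* at 59.7 beside 11.8 for *Slc17a6*. With the scrambled hairpin the same levels were 38.8 and 8.52 for the Munc13 pair, 12.6 and 9.69 for the RIM pair, and 42.9 and 10.2 for the transporters. After silencing they were 18.9 and 7.88, 7.19 and 9.66, and 52.2 and 15.8, so the order of *Rims1* and *Rims2* was turned around in the silenced libraries and in neither control. Reads were not assigned to single isoforms here, and a shift in isoform length would alter these levels.

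The 2 control groups themselves differed. With the scrambled hairpin, 14 of the 38 genes were lower and 14 were higher than with the empty vector, where 21.8% of all 14096 genes tested were lower and 21.3% higher. Of the 13 active zone genes 8 were lower and 0 were higher (median log2FC −0.54), and of the 9 SNARE genes 1 was lower and 7 were higher (median 0.28). The vesicle membrane genes divided into 3 lower and 3 higher, and the synapsin, Rab3 and rabphilin genes into 2 lower and 4 higher. The difference between these groups of genes was not tested. *Rims1* stood at 85.3, 73.5 and 72.6 CPM in the scrambled and 155, 156 and 154 CPM in the empty vector libraries (log2FC −1.01 ± 0.06, adjusted p = 8.6e-08). *Erc2* stood at 128, 131 and 133 against 224, 225 and 219 CPM (log2FC −0.77 ± 0.04, adjusted p = 3.8e-08). Higher with the scrambled hairpin were *Synpr*, at 119, 127 and 121 against 76.6, 71.7 and 57.4 CPM (log2FC 0.83 ± 0.09, adjusted p = 0.00015), *Rph3a*, at 324, 357 and 359.6 against 229, 199.8 and 179 CPM (log2FC 0.78 ± 0.09, adjusted p = 0.00026), and *Vamp2*, at 1539, 1438 and 1412 against 1069, 1078 and 1109.9 CPM (log2FC 0.43 ± 0.04, adjusted p = 2.7e-06). In all of these the libraries of the groups did not overlap. Among the vesicle and synapsin genes, *Sv2b* (−0.67 ± 0.12, adjusted p = 0.0045), *Syn3* (−0.65 ± 0.14, adjusted p = 0.0082) and *Sv2c* (−0.55 ± 0.07, adjusted p = 4.9e-05) were lower with the scrambled hairpin, and *Rab3a* (0.35 ± 0.04, adjusted p = 8.3e-06), *Syn2* (0.34 ± 0.05, adjusted p = 0.00012) and *Syn1* (0.22 ± 0.05, adjusted p = 0.0046) were higher. *Syn3* stood at 49.1, 58.6 and 64.6 CPM against 105, 85.5 and 79.7 CPM, without overlap, and at 54.2, 56.9 and 48.2 CPM after silencing, where the log2FC against the scrambled hairpin did not pass the test.

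Transcript length moved with the contrast between controls. Over 13523 genes with an annotated length, the log2FC of scrambled against empty vector had a correlation of −0.355 with log length and 0.255 with GC content, given as a description since genes of a library share its depth and preparation, and with genes cut into 5 equal bins of length the median log2FC was 0.2 in the bin of shortest and −0.22 in the bin of longest transcripts. In silencing against scrambled the same correlations were −0.124 and 0.139 over 13631 genes, with medians of 0.06 and −0.12. The 13 active zone genes have median transcript lengths of 4606 to 18465 bases, and the 9 SNARE genes of 1565 to 4928 bases. When each library was adjusted for GC content and length, scrambled against empty vector gave 12 lower and 14 higher genes among the 38 (15.2% lower and 19% higher over all genes), but with other members. The active zone genes then held 6 lower and 3 higher (median −0.25) and the SNARE genes 0 lower and 6 higher (median 0.28). *Pclo* moved from −0.55 to −0.03 (adjusted p = 0.65), *Napb* from −0.13 to 0.09 (adjusted p = 0.055), and *Bsn* (0.18, adjusted p = 0.0065), *Erc1* (0.15, adjusted p = 0.0082) and *Unc13b* (0.26, adjusted p = 0.039) became higher. *Rims1* (−0.75, adjusted p = 2.9e-06) and *Erc2* (−0.55, adjusted p = 5e-07) stayed lower, and *Rph3a* (0.79, adjusted p = 2.2e-05) and *Synpr* (0.95, adjusted p = 0.00086) stayed higher.

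The same adjustment left the larger changes of silencing against scrambled in place. It gave 19 lower and 6 higher members (29.3% lower and 27.4% higher over all genes), with *Rph3a* at −1.66, *Ppfia3* at −0.98, *Unc13a* at −0.92, *Erc1* at −0.7, *Rims1* at −0.68, *Pclo* at −0.67 and *Slc17a6* at 0.76. The calls of *Napa*, *Syngr3*, *Sv2b* and *Rims3* were lost. In turn *Vamp1* (−0.28, adjusted p = 0.044), *Vamp2* (−0.24, adjusted p = 0.0028) and *Rab3a* (−0.19, adjusted p = 0.003) were called lower, and *Cplx2* (0.15, adjusted p = 0.03) and *Bsn* (0.33, adjusted p = 0.00024) higher. Of the 13 active zone genes 7 were then lower and 2 higher (median −0.37). The 9 SNARE genes held 6 lower and 1 higher (median −0.26). Among the 7 synapsin, Rab3 and rabphilin genes 4 were lower and 1 higher, and among the 9 vesicle membrane genes 2 were lower and 2 higher. The active zone group thus no longer held the largest share of lower calls, though its median stayed the lowest.

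**Figure D4:**
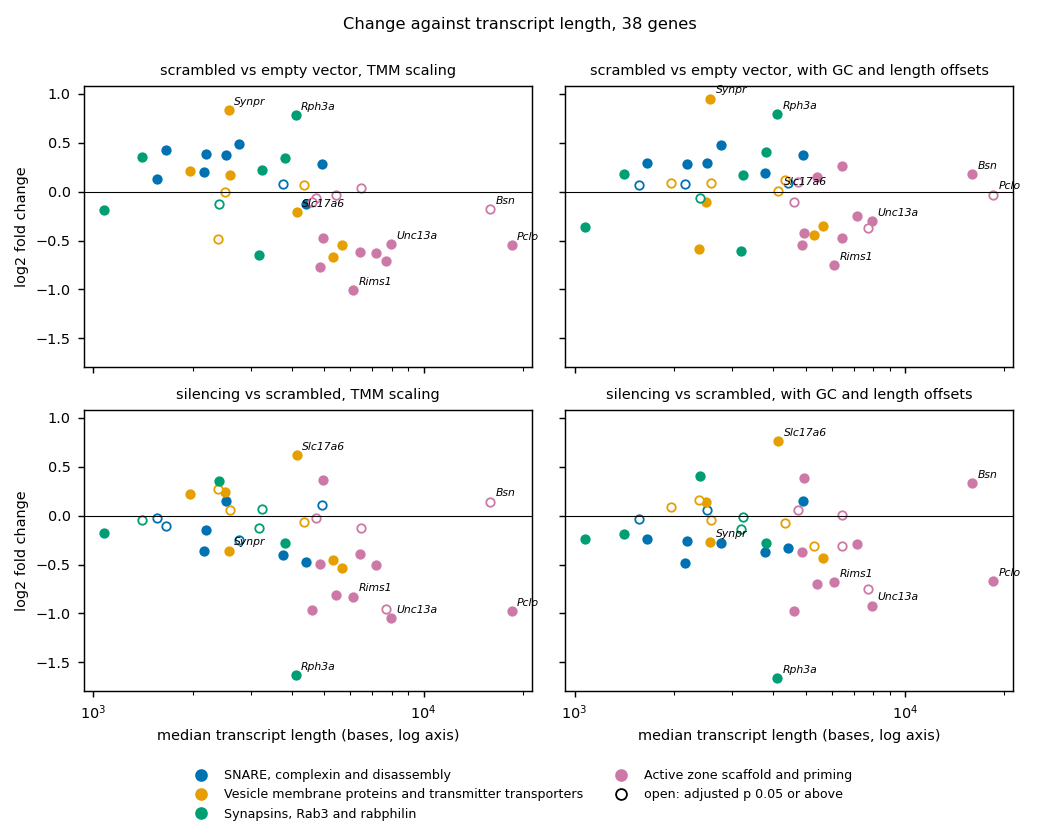
Log2 fold change (y axis) against median transcript length (x axis, log scale) for the 38 genes, in scrambled against empty vector (top) and silencing against scrambled (bottom), with TMM scaling (left) and with offsets for GC content and length (right); filled points had an adjusted p below 0.05. The longer genes lie lower in both left panels, Pclo moves from −0.55 to −0.03 with the offsets at the top, and Rph3a, Unc13a, Rims1 and Pclo stay low at the bottom right.

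Against the empty vector, the silenced libraries gave 17 lower and 12 higher members, where 33.5% of all 14292 genes were lower and 34% higher. This contrast shares its silenced libraries with that against the scrambled hairpin, so it is no separate evidence, and the groups differ in virus design as well as in *Dek*. Some members stood differently against the 2 controls. *Cplx1* and *Synpr*, with log2FC of −0.15 and −0.36 against the scrambled hairpin, were higher against the empty vector (0.25 ± 0.05, adjusted p = 0.00082, and 0.49 ± 0.09, adjusted p = 0.00075). With the offsets for GC content and length *Synpr* stayed higher (0.67, adjusted p = 0.00045), whereas *Cplx1* lost its call (0.02, adjusted p = 0.78). *Syn2* (0.08 ± 0.06, adjusted p = 0.27) and *Rims4* (−0.08 ± 0.1, adjusted p = 0.46) were not called. *Rims1* was lowest in this contrast, at 50.2, 40.5 and 41 against 155, 156 and 154 CPM (log2FC −1.82 ± 0.07, adjusted p = 9.4e-10), followed by *Unc13c*, which had few counts, and by *Unc13a* (−1.58 ± 0.07, adjusted p = 1.2e-09) and *Pclo* (−1.52 ± 0.07, adjusted p = 3.1e-09). With the offsets *Rims1* (−1.43) and *Unc13a* (−1.22) were still the lowest, but *Pclo* (−0.71, adjusted p = 2.8e-07) came behind others, among them *Ppfia3* (−1.09), *Erc2* (−0.92) and *Rph3a* (−0.87). For *Rph3a* the log2FC was −0.84 ± 0.09 (adjusted p = 6.1e-06). *Slc17a6* remained higher (70.1, 65.2 and 61.2 against 47.8, 50.3 and 48 CPM, log2FC 0.43 ± 0.07, adjusted p = 7.9e-05).

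**Figure D5:**
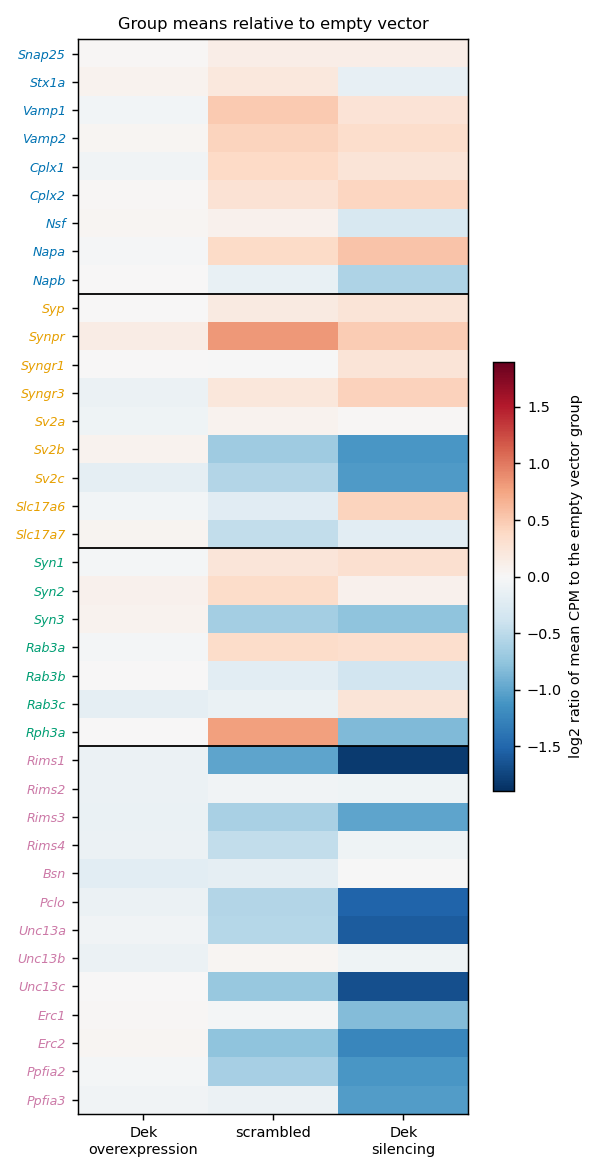
Log2 ratio of each group's mean CPM to that of the empty vector group (color, from −1.9 in blue to 1.9 in red) for the 38 genes, ordered by group of genes. The overexpression column is pale throughout, the scrambled column is red in many SNARE genes and blue in most active zone genes, and the silencing column is bluest for Rims1, Unc13a, Pclo and the scarce Unc13c.

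*Dek* overexpression left these genes near their control levels. None of the 38 passed the test against the empty vector, where 0.0071% of all 14089 genes did (*Dek* alone). At an unadjusted p below 0.05, 2 of the 38 were lower and 0 higher, beside 3.68% lower and 2.92% higher over all genes. The 2 were *Bsn*, at 124, 127 and 131 CPM against 165, 145 and 132 CPM (log2FC −0.21 ± 0.07, adjusted p = 0.69), and *Rab3c*, at 620.1, 568 and 682 against 649, 728 and 728 CPM (log2FC −0.17 ± 0.07, adjusted p = 0.71). DESeq2 and limma-voom also called 0 members. The overexpression and empty vector libraries overlapped in all but 2 of the 38 genes, *Bsn* and *Unc13a*, where 11.7% of all genes tested did not overlap. The log2FC of the genes that changed most after silencing was 0.01 ± 0.07 for *Rph3a*, −0.07 ± 0.05 for *Unc13a* and −0.1 ± 0.07 for *Pclo*.

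Whether the response to silencing differed from that to overexpression was tested directly, as the log2FC of silencing against scrambled minus that of overexpression against empty vector over all 12 libraries. It was lower for 15 members and higher for 7, where 22.7% of all 14604 genes were lower and 20.4% higher. The largest differences were those of *Rph3a* (−1.63 ± 0.11, adjusted p = 2.3e-09), *Unc13a* (−0.96 ± 0.08, adjusted p = 3.8e-08), *Ppfia3* (−0.88 ± 0.1, adjusted p = 9.4e-07), *Pclo* (−0.86 ± 0.11, adjusted p = 5.2e-06) and *Erc1* (−0.81 ± 0.07, adjusted p = 1.1e-07). *Slc17a6* (0.68 ± 0.12, adjusted p = 0.00018) and *Rab3c* (0.54 ± 0.11, adjusted p = 0.00087) differed upward. The 2 arms differed in promoter and in what the virus carried, a hairpin or a *Dek* coding sequence. Neither can be told apart from the direction of the *Dek* change. The contrast shares its silenced and scrambled libraries with silencing against scrambled, so it is no separate evidence.

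A further list of 57 genes that work with the 38, from calcium-dependent priming to vesicle transport, was read from the same fits. Of the 52 tested, 28 were lower and 8 were higher after silencing than with the scrambled hairpin (median −0.21), again beside 28.5% and 26.2% of all genes. The most certain falls were those of *Ppfia4*, another liprin-α (−1.08 ± 0.06, adjusted p = 2.6e-08), *Snph*, encoding the mitochondrial anchor syntaphilin (−1.05 ± 0.06, adjusted p = 5.9e-08), *Tprgl*, encoding the vesicle protein mover (−0.99 ± 0.06, adjusted p = 9.7e-08), and *Tspoap1*, encoding the RIM-binding protein RIM-BP1 (−0.98 ± 0.07, adjusted p = 2.6e-07). *Ppfia1* (−0.88 ± 0.09, adjusted p = 4.6e-06) and *Rab3d* (−0.58 ± 0.06, adjusted p = 1.2e-05) followed, so that all 4 liprin-α genes were lower. The most certain rises were those of *Syngr2*, a synaptogyrin found mainly outside neurons (2.21 ± 0.14, adjusted p = 1.3e-07), *Lin7a*, a scaffold that binds CASK (0.8 ± 0.07, adjusted p = 2.2e-06), *Rab3il1*, an exchange factor for Rab3 (1.81 ± 0.19, adjusted p = 6.6e-06), *Scamp5* (0.44 ± 0.05, adjusted p = 2e-05), *Snapin*, a SNAP-25-binding protein (0.6 ± 0.09, adjusted p = 0.00011), and *Sypl* (0.33 ± 0.1, adjusted p = 0.011). All 3 synaptogyrin genes on these lists were thus higher after silencing, although *Syngr3* lost its call with allowance for GC content and length.

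The hairpin against *Dek* targets a stretch of the *Dek* transcript that contains the 7 bases AAGAGGA, and earlier results of these data had singled out this heptamer in the 3′ untranslated regions (UTRs) of genes that fell, so its presence among the 38 genes is not independent evidence. It was looked for on the sense strand of the longest annotated 3′ UTR of each gene (GENCODE vM21, GRCm38), and was found in 13 of the 38 (34.2%) and in 16% of all 13426 tested genes with a 3′ UTR; the median 3′ UTR length was 2297 bases for the 38 and 1230 bases for all. It was present in 8 of the 18 members that were lower after silencing, 2 of the 6 that were higher and 3 of the 14 not called, and over all genes in 23.8% of the lower, 10.5% of the higher and 14% of those not called. The median log2FC was −0.4 for the 13 members with the heptamer and −0.11 for the 25 without. The sites of the 5 members with the largest falls among those that carry it, and of *Syngr1*, which was higher, are given with 10 bases to either side, 5′ to 3′ on the transcript strand, the heptamer in capitals.
Unc13a (chr8:71624728-71624754, minus strand, 3′ UTR position 4679 of 5006): tgctcaggccAAGAGGAgcaccccaat
Pclo (chr5:14861236-14861262, plus strand, 3′ UTR position 2360 of 4573): gaagaagtgtAAGAGGAtcctctgata
Ppfia3 (chr7:45339851-45339877, minus strand, 3′ UTR position 164 of 905): gcagccgaagAAGAGGAcaggaagaaa
Erc1 (chr6:119572207-119572233, minus strand, 3′ UTR position 3402 of 4829): cctgtgaaccAAGAGGAcgttcaggga
Ppfia2 (chr10:106933990-106934016, plus strand, 3′ UTR position 2911 of 4863): agatctgggaAAGAGGAaaatctacat
Syngr1 (chr15:80117482-80117508, plus strand, 3′ UTR position 1416 of 3425): ggcggggcctAAGAGGAcaacaaggag
*Rph3a* and *Rims1*, with the first and the fifth largest falls among the called members, held no AAGAGGA in their 3′ UTRs of 1669 and 2171 bases. A match to these letters is not a binding site, and its part in the falls was not tested.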

How the data were processed

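RNA was sequenced from 12 wells of EC neurons, 3 in each of 4 groups, from 200 ng of RNA per library. The authors deposited 1 table of estimated counts per gene, not normalized, of which 38.6% of the values are not whole. The submitters' processing notes name Salmon, whereas the study's methods describe fastp and STAR, with RPKM from edgeR; both name DESeq2 and the mm10 build. The strand setting was not given in the sources used here. The 9 genes without a symbol were kept in the fits.

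Estimated counts were rounded and analysed with edgeR 4.0.16 in R 4.3.3 (filterByExpr, TMM scaling, robust quasi-likelihood F test, two-sided), with Benjamini-Hochberg adjustment over all genes tested and a threshold of 0.05. Pairs of groups of 3 libraries were fitted separately, and the difference between the responses over 12 libraries. Members were read from these fits. CPM are TMM-scaled over all 12 libraries. Standard errors were derived from the F statistic and the log2FC. Transcript length, GC content and 3′ UTRs came from GENCODE vM21 (GRCm38, the assembly of mm10), matched by Entrez ID for 21167 genes, and the offsets were a loess of each library on GC content and length (span 0.3).

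Alternatives were DESeq2 size factors, library totals, the DESeq2 1.42.0 Wald test, limma-voom (limma 3.58.1), a minimum of 5 CPM in 3 libraries or none, a joint fit of the 12 libraries, a replicate block, GC and length offsets, leaving out each library, and an adjusted p below 0.01. On simulated counts with 200 changed genes, the silencing fit recovered 42.2%, 80.3% and 98.5% of changes of 1.3, 2 and 4 fold among 14076 genes, and 7.05% of its calls were of genes simulated without a change. In the real contrast 28.5% of genes were called lower and 26.2% higher, far more than were changed in the simulation. The simulated rates therefore need not hold for it. All 38 members, *Dek*, and of the companion list the called genes with the smallest adjusted p, at most 6 in each direction, could be named. The members and lists were chosen with earlier results of these data known.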

Additional observations from a re-analysis of the deposited data

Results flagged for a closer look

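For 22 of the 38 genes the response to *Dek* silencing differed from that to *Dek* overexpression in the test of the difference itself (adjusted p below 0.05, edgeR): 15 were lower and 7 higher, beside 22.7% lower and 20.4% higher over all 14604 genes. The difference, in log2 units as silencing minus overexpression, was below 0 in the active zone genes *Unc13a* (−0.96), *Ppfia3* (−0.88), *Pclo* (−0.86), *Erc1* (−0.81), *Rims1* (−0.7), *Erc2* (−0.52) and *Ppfia2* (−0.45). It was also below 0 in *Rph3a* (−1.63) and *Syn2* (−0.34), in the SNARE and disassembly genes *Napb* (−0.46), *Nsf* (−0.43) and *Stx1a* (−0.42), and in the vesicle genes *Sv2b* (−0.5), *Synpr* (−0.49) and *Sv2c* (−0.36). It was above 0 in *Slc17a6* (0.68), *Rab3c* (0.54), *Rims4* (0.49), *Bsn* (0.37), *Syngr3* (0.34), *Syngr1* (0.25) and *Napa* (0.19). *Bsn* was not called in either response alone, at 0.14 after silencing and −0.21 after overexpression. All the others were also called in silencing against scrambled. This contrast shares those libraries, so it is no separate evidence. With allowance for GC content and length the calls of *Syngr1* (0.08, adjusted p = 0.39), *Sv2b* (−0.38, adjusted p = 0.11), *Sv2c* (−0.27, adjusted p = 0.082) and *Napa* (0.08, adjusted p = 0.36) were lost. Lower calls were gained by *Vamp2* (−0.3, adjusted p = 0.001), *Rab3b* (−0.24, adjusted p = 0.0065), *Cplx1* (−0.21, adjusted p = 0.035) and *Rab3a* (−0.17, adjusted p = 0.016). *Napa* lay at the threshold, and *Napa*, *Sv2c* and *Sv2b* lost the call without single libraries, with log2 values between 0.15 and 0.21, −0.39 and −0.28, and −0.51 and −0.39 there. With 3 libraries a group, no single library could be tested as standing apart.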

How the results depend on the processing

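Of the 24 members called in silencing against scrambled, 18 kept their direction and their call under all alternatives, as did 19 of 28 in scrambled against empty vector, 23 of 29 in silencing against empty vector and 18 of 22 in the difference. No count of called members moved by more than 1.5 times except that of higher members in silencing against scrambled, which was 10 with library totals alone, and that of higher release partners, which was 5 at an adjusted p below 0.01. Among members called with or without them, offsets for GC content and length turned the sign of *Napb* (0.09), *Slc17a6* (0.01), *Bsn* (0.18) and *Erc1* (0.15) in scrambled against empty vector. They also turned that of *Rab3a* (−0.01), *Rims2* (0.16), *Bsn* (0.51) and *Unc13b* (0.27) in silencing against empty vector, and of *Rab3a* (−0.17) in the difference. Some members called in neither fit changed sign too, such as *Syp* in silencing against scrambled (0.06 to −0.04). In silencing against scrambled, leaving out 1 library gave 14 to 20 lower and 5 to 8 higher members, and 14 were lower without scrambled replicate 2 or silencing replicate 2. There *Cplx1* lost its call without scrambled 1 or 2 or silencing 2 or 3 (−0.15 to −0.1), *Rims3* without the same libraries (−0.41 to −0.25), *Sv2b* without scrambled 2 or 3 or silencing 2 (−0.49 to −0.38), *Rab3b* without scrambled 2 or silencing 2 (−0.17 and −0.15) and *Napa* without scrambled 2 or 3 (0.13 and 0.15). *Vamp1* (−0.36), *Vamp2* (−0.14), *Syn1* (0.13) and *Bsn* (0.19) gained one without silencing 1, *Syn3* (−0.23) without scrambled 1, and *Unc13c* without scrambled 1 (−1.12) or silencing 3 (−1.45). In scrambled against empty vector, *Snap25* lost its call without scrambled 1 or empty vector 2 (0.09 and 0.13), *Stx1a* without empty vector 2 (0.17) and *Unc13c* without scrambled 1 or 2 or empty vector 1 or 2 (−0.69 to −0.54), and *Slc17a7*, *Rab3c*, *Bsn*, *Nsf* and *Ppfia3* gained one without 1 library (−0.58 to 0.1). In silencing against empty vector, *Stx1a* lost its call without silencing 2 or empty vector 1 or 3 (−0.17 to −0.12), and *Vamp1* (0.33 and 0.35) and *Snap25* (0.19) gained one without 1 library. Libraries with the same number were not taken as pairs in the main fit. Their deviations in silencing and scrambled correlated at 0.304, 0.133 and 0.0697. For silencing replicate 1 the other scrambled libraries gave −0.19 and −0.179, whereas for replicates 2 and 3 another number reached 0.15 and 0.0739. The other pairs of groups were at or below −0.0197. Whether the silencing and scrambled wells of a number share a source cannot be told from these values. With the replicate block, 21 members were lower and 8 higher in silencing against scrambled. *Vamp1*, *Vamp2*, *Slc17a7*, *Bsn* and *Unc13c* gained a call in that fit. Shares over all genes were counted only for the main fits and those with GC and length offsets. The counts of members under the other alternatives therefore have no share over all genes beside them. For *Unc13c*, with 9 to 52 counts a library, depth limits what can be detected.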
